A study of Mus musculus with 11 samples.

Results

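Secretin and 9 neuropeptide genes were followed in the main olfactory epithelium (MOE), the sheet of nasal tissue that holds the olfactory sensory neurons (OSNs), of newborn mice with and without Bcl11b. The genes are Sct, Npy, Adcyap1, Vip, Gnrh1, Gal, Tac1, Cck, Sst and Nmb, and every probe set that the platform annotation assigned to exactly 1 of them was taken. This gave 11 probe sets for 9 of the 10 genes, out of 45101 probe sets and 18194 singly named genes on the array. No probe set was assigned to Gnrh1, the precursor of gonadotropin-releasing hormone, by itself, and it was not analysed. The group was selected on the KO against wild type signals of these same arrays, on which secretin stood out. Total RNA of the whole dissected MOE was measured at postnatal day 0 in 5 wild type and 6 Bcl11b knockout (KO) samples of strain BALB/c, each on 1 array. RNA was prepared separately from each dissected MOE, and the sources do not say which samples were littermates. Both groups were offspring of heterozygous parents, all wild type and 4 KO samples were male, and KO 3 and KO 6 were female. The KO is conventional, so that all tissues of the mouse, and not OSNs alone, lacked the gene. Bcl11b is a zinc finger transcription factor.

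Neuropeptides are cut from larger precursors by convertases, often amidated at their end, packed into dense-core granules and released onto G protein-coupled receptors. Secretin, VIP and PACAP (the product of Adcyap1) are related peptides that raise cyclic AMP through their receptors, and secretin is best known as the gut hormone that makes the pancreas secrete bicarbonate. In the nose, NPY is known from olfactory ensheathing glia and from microvillar cells, PACAP from developing sensory neurons, and neurons that make gonadotropin-releasing hormone migrate out of the olfactory region before birth. A whole-tissue array cannot tell fewer cells of a type from less RNA per cell.

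Signals are intensities scaled by the authors so that GAPDH reads the same on every array. Fold changes are KO minus wild type on the scale of log2(signal + 16), which compresses the change of dim probe sets, and each is given with its standard error (SE) from limma, a linear model fitted to all 33662 probe sets with a mean signal of at least 20. A probe set was called when its p-value, adjusted over all of these by the Benjamini-Hochberg method, was under 0.05. Median array signals were 56.6 to 85.7 in wild type and 62 to 86.5 in KO, and Bcl11b signal on its brightest probe set was lower on all KO arrays (893 ± 242, SD, n = 6) than on all wild type arrays (3260 ± 529, SD, n = 5). The 15 mature OSN markers included Stoml3 and Gnal, both clearly measured, and of the 12 tested 5 fell and none rose, with a median change of -0.51, where 0.211% of all probe sets were called lower and the median change was 0.047. Poly-A controls spiked into the RNA were higher on wild type 1 and 2 and KO 4, 5 and 6 than on the rest, and the sources give no labelling date. Changes within these 2 sets of arrays are given below for Sct, Npy and Tac1, the members in which they differed most. For Gal the change was 0.37 within the higher set and -0.12 within the lower, and for Nmb 0.33 and -0.03.

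The letters before the start of transcription are shown for Sct, the 1 gene called among the 6 members tested, and for Npy, the tested member most uneven among KO arrays. They come from the RefSeq table of assembly GRCm38.p6 and run 5′ to 3′ on the strand of the gene, at chr7:141279175-141279383 (minus strand, 209 bases) for Sct and chr6:49822460-49822709 (plus strand, 250 bases) for Npy. Capitals mark the GC box (GGGCGG), a site of Sp1-type factors.
Sct: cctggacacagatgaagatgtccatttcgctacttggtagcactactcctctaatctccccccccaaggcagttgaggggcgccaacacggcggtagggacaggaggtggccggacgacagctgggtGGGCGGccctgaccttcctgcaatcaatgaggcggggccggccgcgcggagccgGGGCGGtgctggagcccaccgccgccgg
Npy: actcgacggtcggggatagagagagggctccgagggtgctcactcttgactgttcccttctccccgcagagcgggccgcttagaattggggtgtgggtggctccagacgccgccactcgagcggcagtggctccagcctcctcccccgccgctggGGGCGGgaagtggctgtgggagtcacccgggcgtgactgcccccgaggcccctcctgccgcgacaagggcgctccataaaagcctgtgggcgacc

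All 9 measured genes had an entry, and 4 motifs were searched on both strands of the 250 bases before each start (10 windows, since Adcyap1 has 2 starts). The last 41 of these bases at Sct lie within the annotated gene and are not printed. TGACCA, the letters bound by the zinc fingers of the closely related Bcl11a, was in 0 of the 9 genes, against 11.4% of 32851 windows over all genes. GGGCGG was in 5 genes (Sct, Npy, Tac1, Gal and Nmb), of which Sct holds 2 and Nmb 3, against 32.7% of windows. The cyclic AMP response element TGACGTCA, found in 1.55% of windows, was in Sst alone, 48 bases before the start. The palindromic motif of the Ebf factors of OSNs was found in 0.779% of windows and among the 9 genes in Vip alone. A match is a description of these letters and not a binding site.

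Sct signal was 4.42-fold higher in the KO by the group means (37.5 ± 30.6, SD, n = 5, against 165 ± 40.5, SD, n = 6). On wild type arrays 1 to 5 it was 49.2, 86.3, 16.1, 18.4 and 17.3. On KO arrays 1 to 6 it was 146.7, 93.5, 179, 192, 175.1 and 206.5. All 6 KO arrays lay above all wild type arrays, and the nearest pair was wild type 2 (86.3) and KO 2 (93.5). Wild type 3, 4 and 5 read under 20, the minimum set for a mean signal. The fold of the means thus rests in part on very dim readings and is only approximate.

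The log2 change of Sct was 1.89 ± 0.29 (SE). A larger positive change was measured for 24 of the 33662 probe sets. Of the 6 members tested, Sct was called and the other 5 were not. Vip, Adcyap1 and Sst lay below the minimum signal and were not tested. Over all probe sets 0.455% were called, 0.244% as higher and 0.211% as lower in the KO. For 0.716% of them every KO array lay above every wild type array, for 0.573% below, and for 1.29% in either direction. Higher readings made up 53.6% of the calls, but 41% after quantile normalization and 18.6% on the scale of the spiked hybridization controls, and Sct rose on both. Sct was chosen by this very contrast, so its call and its rank describe it and support nothing, and no p-value is given for it or for the other 9 genes. The probe set is dim in wild type, where the array-to-array SD of its log2 values exceeded that of 98.6% of the 5046 probe sets of like signal. Like signal means a mean over all 11 arrays within 0.5 of its own on the log2 scale. For Sct that mean (107) includes the KO arrays and lies above its wild type mean of 37.5. The probe sets compared were thus brighter than Sct was in wild type, which limits this percentage. The spread within wild type followed the poly-A controls: the arrays with higher controls read 49.2 and 86.3 and the other 3 read 16.1 to 18.4. The log2 change was 1.34 within the arrays of higher controls, where it did not pass, and 2.19 within the others. It was 1.78 when KO 5 and 6 were left out (chosen after seeing the data, for markers of brain neurons described below), and the call held.

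**Figure D1:**
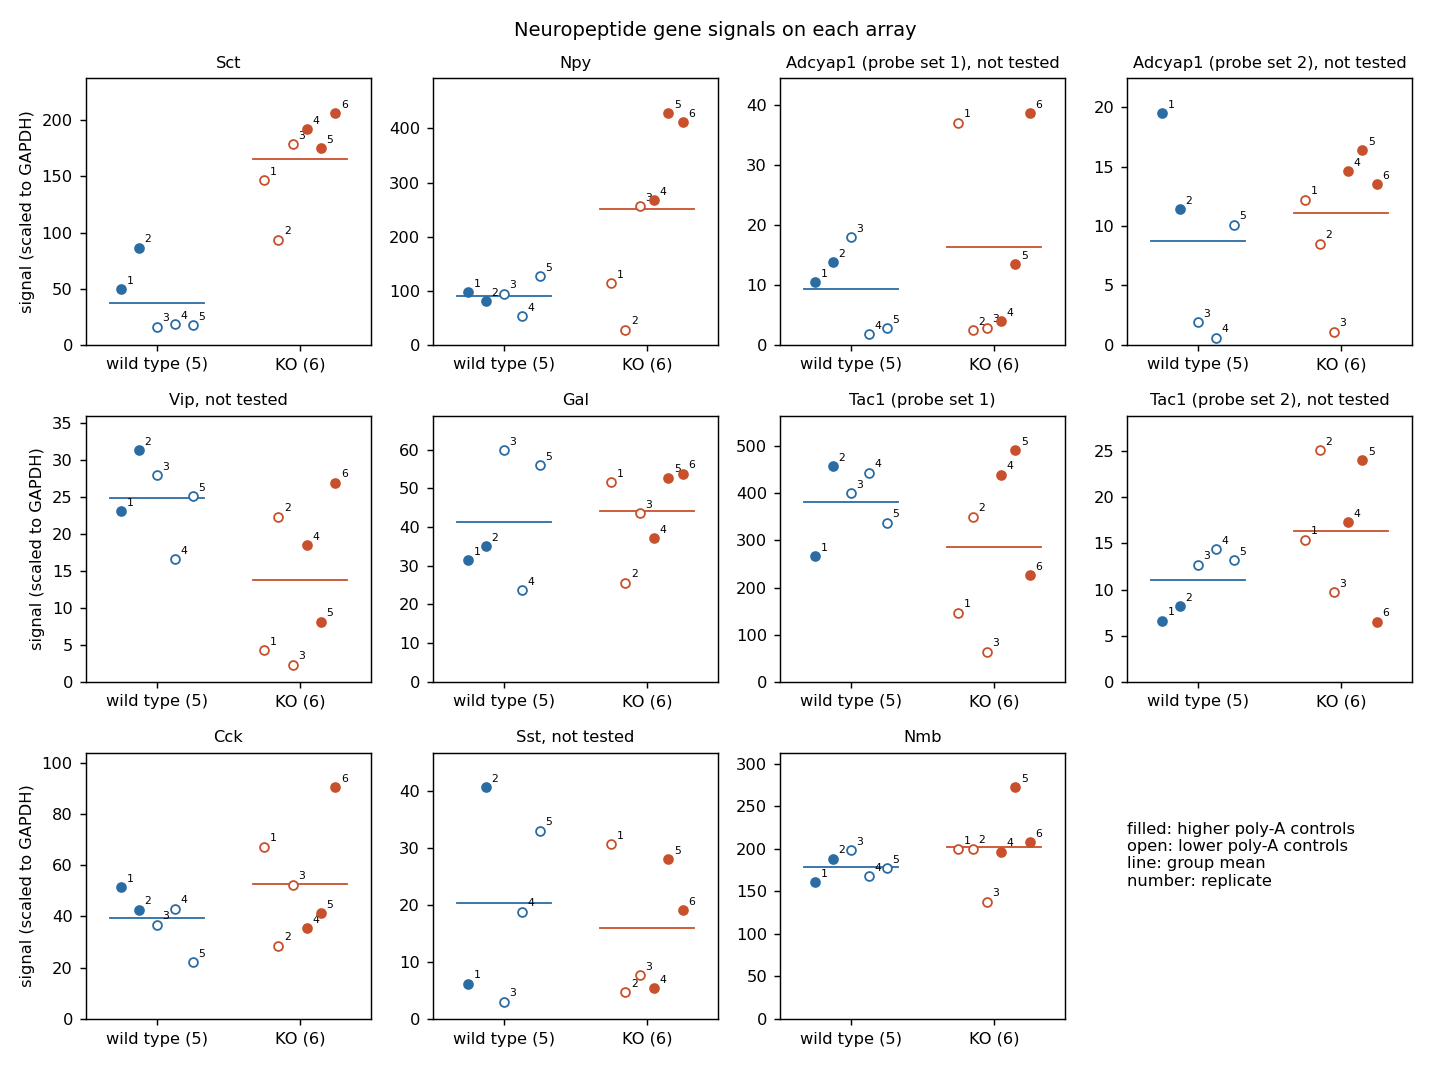
Signal (linear axis, scaled to GAPDH) of each of the 11 probe sets on the 5 wild type and 6 KO arrays; points are arrays numbered by replicate, filled where poly-A controls were higher, and lines are group means. Sct separates the groups (86.3 at most in wild type, 93.5 at least in KO), while the other probe sets overlap, and Npy runs from 27.3 to 428.3 within the KO.

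Among all singly named probe sets tested, those whose pattern lay closest to Sct were ranked by the root mean square difference of their log2 values from it over the 11 arrays, each set relative to its own wild type mean. The 5 closest genes were Ckm, the creatine kinase of muscle (0.443), Stum (0.505), Arl2bp, a partner of ARL GTPases (0.511), G530011O06Rik (0.513) and Olfr672, a class I odorant receptor (0.525). The median difference over 27804 probe sets was 1.46. Ckm shared with Sct the high reading of wild type 2. All 5 had a log2 change between 1.53 and 1.97, and the ranking follows the group difference by construction.

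No measured gene next to Sct on chromosome 7 showed a change of its size. The 3 nearest measured genes on one side were Cdhr5, Irf7 and Phrf1, with log2 changes of 0.25 ± 0.21, 0.22 ± 0.17 and 0.055 ± 0.16 (SE). On the other side they were Drd4, Deaf1 and Tmem80, with 0.49 ± 0.30, 0.018 ± 0.22 and -0.25 ± 0.17. None of the 6 passed (limma, adjusted p of 0.872 to 0.998), and the 2 groups overlapped on each. Drd4 and Cdhr5, the nearest on each side, had mean signals of 22.9 and 39.1. These lie near the minimum signal, where the scale compresses changes.

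**Figure D2:**
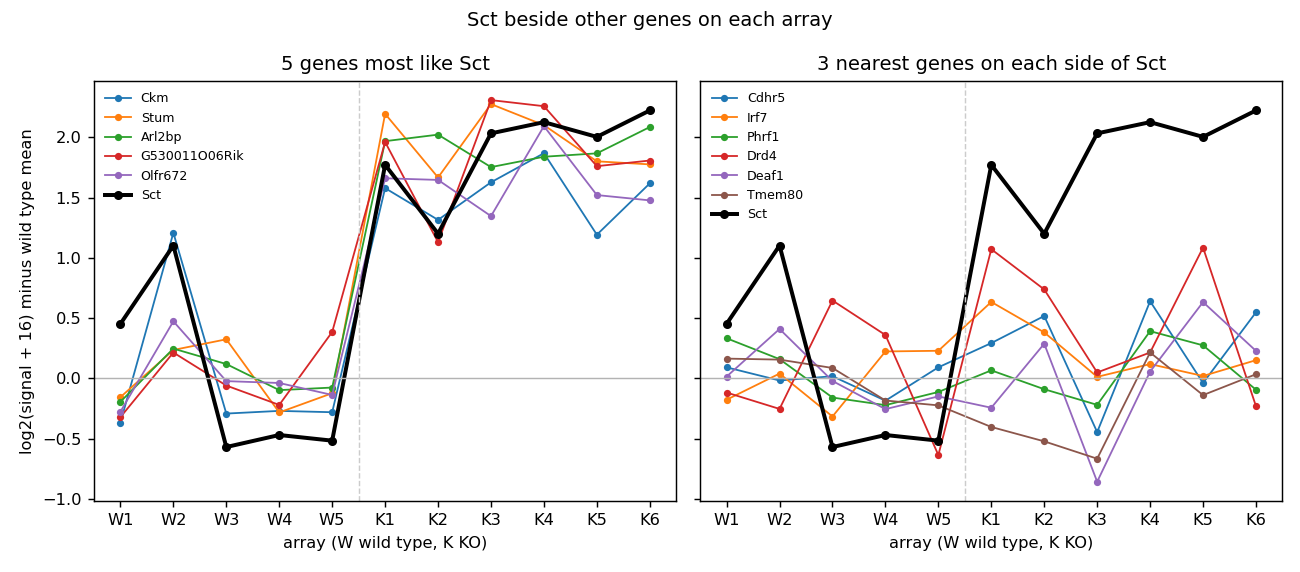
Log2(signal + 16) on each array relative to the wild type mean of the same gene, for Sct (black) with the 5 genes closest to it (left) and with its 3 nearest measured genes on each side (right). Sct and the 5 closest genes lie higher on the KO arrays, Ckm with 1 overlapping wild type array, whereas the neighbours of Sct scatter around 0 in both groups.

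Secretin acts through its receptor Sctr, a G protein-coupled receptor of the same family as those of VIP and PACAP. Sctr averaged 37.7 ± 21.0 on wild type and 19.2 ± 15.0 on KO arrays (SD), and its log2 change of -0.61 ± 0.32 (SE) did not pass (limma, adjusted p = 0.794). Both values lie near the minimum signal, with readings from 10.1 to 61.7 in wild type and from 5.4 to 45.5 in KO.

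The other members of the secretin family were at or under the minimum signal, which says only that these probe sets read little here. Vip was 23.1, 31.3, 27.9, 16.6 and 25.1 in wild type and 4.3, 22.3, 2.3, 18.5, 8.1 and 26.9 in KO. KO 1, 3 and 5 lay below all wild type arrays and the other 3 lay among them, with a change of -0.52 ± 0.23 (SE) in the fit without a minimum. Adcyap1 read 1.7 to 18 in wild type and 2.4 to 38.7 in KO on its brighter probe set, where KO 1 and KO 6 (37.1 and 38.7) lay above all other arrays. The second Adcyap1 probe set read 0.6 to 19.5 and 1.1 to 16.4 and did not show those high readings (12.2 and 13.5).

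Npy, a peptide of sympathetic and brain neurons and of olfactory ensheathing glia, split the KO arrays. It was 96.9, 80.1, 94.1, 53 and 126.3 in wild type, and 113.3, 27.3, 256.2, 266.9, 428.3 and 411.8 in KO. KO 3 to 6 lay above all wild type arrays, KO 1 lay among them and KO 2 was the lowest of all 11. The group means were 90.1 ± 26.7 (SD, n = 5) and 251 ± 159 (SD, n = 6), and the log2 change of 1.01 ± 0.45 (SE) was not called. Within the KO its highest reading was 15.7 times its lowest, and its SD on the log2 scale (1.28) exceeded that of 99.6% of the 4849 tested probe sets of like signal, against 82.1% in wild type.

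The Npy values moved with other measures. Within the arrays of higher poly-A controls (2 wild type arrays and KO 4, 5 and 6) its log2 change was 1.86 and passed, and within the others it was 0.17. The members were selected on the KO against wild type contrast, so calls of Npy in parts of these arrays describe it and support nothing. Without KO 2 the change was 1.47 and Npy was called, and without KO 5 and 6 it was 0.48 and was not. In males only or with sex as a covariate it was 0.66, also not called. Of the 12 markers listed for olfactory ensheathing glia, the cells that wrap OSN axons, 10 were tested; none was called, and their median change was 0.21. Their summed signal ranged from 9493 to 14418 in wild type and from 11200 to 19661 in KO.

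Fabp7, a fatty acid binding protein of glia and radial glia and the brightest of these markers, read 2905.3, 6051.2, 3070.7, 2951.7 and 4445 in wild type and 5517, 2469.6, 8468.5, 8703.4, 8920 and 10421 in KO. The 4 arrays of highest Npy were the 4 of highest Fabp7, and KO 2 was lowest in both. The same 4 arrays were the highest for Sct (175.1 to 206.5), and KO 2 (93.5) was the lowest KO array for Sct. Foxd3, a neural crest factor, and Frzb each shared 3 of their 4 highest arrays with Npy (KO 4, 5 and 6). Apod, the next brightest, read 3179.3 to 4287.4 in wild type and 4027.9 to 4805.7 in KO, highest on KO 2. Sox10 and Erbb3, which Schwann cells also use, did not follow this order: KO 2 and KO 5 were their highest arrays. S100b, a calcium-binding protein of glia, also shared 3 of its 4 highest arrays with Npy (KO 3, 4 and 6). It was lowest of all on KO 5 (486.2), however, and only KO 6 (1509.9) lay above the wild type arrays (784.6 to 1235.7). Ngfr was also lowest of all on KO 5 (36.7). Cdh19 and Gfra3 did not follow the order of Npy either. In Cdh19, KO 2 (210.1) lay above KO 3 and KO 6 (166.3 and 155.6), and in Gfra3 wild type 1 (98.6) was highest. In the sample titles KO 1 and 2 carry lower numbers than all wild type samples, and KO 3 to 6 carry higher ones. The sources do not say what these numbers stand for. What part the glial content, or a difference tied to this numbering, had in the Npy and Sct values was not tested.

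Several markers of olfactory bulb and forebrain neurons stood apart on KO 5, and fewer of them on KO 6. Of the 10 tested, Reln and Gad2 were brightest; Reln read 1895.5 on KO 5 and 1163 on KO 6 against 797 at most elsewhere, and Gad2 did not stand apart (187.1 and 162.2 against 179.1). The sum over the 10 was 720 to 1393 in wild type, 870 to 1263 on KO 1 to 4, 4286 on KO 5 and 2096 on KO 6. Gad1, which makes GABA, read 829.6 on KO 5 and 223.7 on KO 6 against 114.5 at most on the other arrays. Dlx1, a factor of forebrain interneurons, read 375.5 and 91.3 against 39.5 at most. Tbr1, Neurod6 and Dlx2 were also highest on KO 5 and KO 6. Eomes read 520.6 on KO 5 but 111.7 on KO 6, against 136 at most elsewhere. Slc32a1 read 89.5 on KO 5 but 45.7 on KO 6, against 52.9 at most elsewhere. Slc17a7 read 30.3 and 38.7, against 37 at most elsewhere. None of the 10 was called, and Tbx21 lay below the minimum signal. Npy read 428.3 and 411.8 on KO 5 and KO 6, and 256.2 and 266.9 on KO 3 and KO 4, where the marker sums were 874 and 1263. The part of these neurons in the Npy values was not tested.

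**Figure D3:**
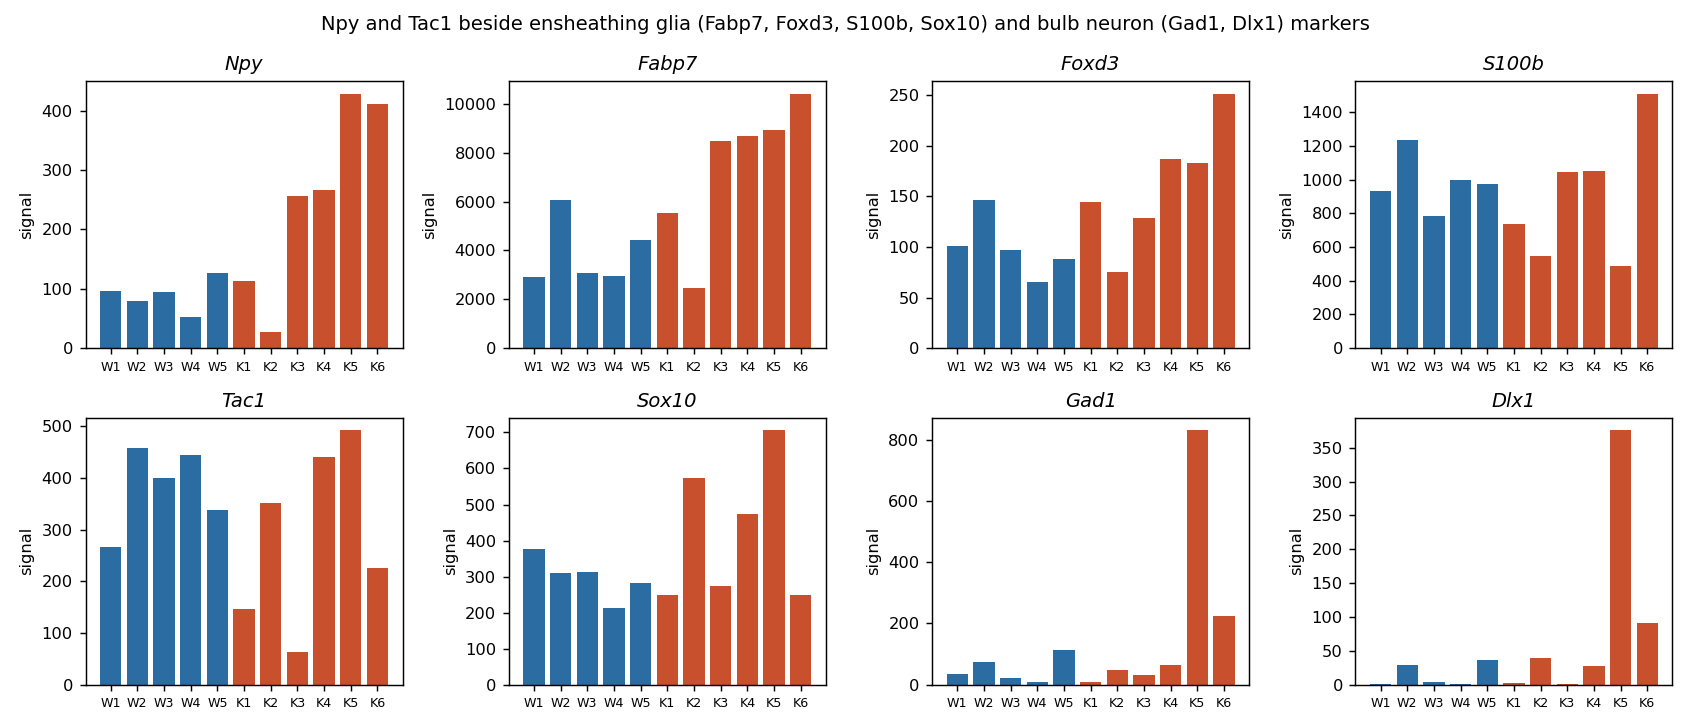
Signal on each wild type (W, blue) and KO (K, orange) array of Npy and Tac1 beside 4 ensheathing glia markers (Fabp7, Foxd3, S100b, Sox10) and 2 bulb and forebrain neuron markers (Gad1, Dlx1); bars start at 0 and each is 1 array. Npy and Fabp7 are both highest on K3 to K6 and lowest on K2, S100b is lowest on K5, Sox10 is highest on K5 and K2, and Gad1 and Dlx1 stand out on K5.

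Tac1 encodes substance P and neurokinin A, peptides of sensory nerve endings. Its brighter probe set read 267.2, 458.1, 400.4, 443.8 and 337.8 in wild type and 146.8, 350.9, 63.9, 439.3, 491.5 and 226.6 in KO. KO 1, 3 and 6 lay below all wild type arrays, KO 5 above all of them and KO 2 and 4 among them. The log2 change was -0.62 ± 0.36 (SE) and was not called. It was -0.29 without KO 3, and -0.19 in males only or with sex as a covariate. Like Npy it was uneven in the KO, with an SD above that of 99.4% of 4801 probe sets of like signal, but the arrays differed: KO 3 was high in Npy and lowest in Tac1. Its change was 0.063 within the arrays of higher poly-A controls and -1.28 within the others. The 2 female KO samples averaged 145 and the 4 males 357, with KO 1, a male, at 146.8. The second probe set read 6.5 to 25.1 over all arrays, below the minimum signal.

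Nmb, neuromedin B, a bombesin-like peptide, was among the more even genes. Its signal was 160.5, 188, 198, 167.8 and 177.1 in wild type and 199.5, 200, 137.6, 196.5, 272 and 207.6 in KO, with a log2 change of 0.15 ± 0.16 (SE). In wild type only 5.4% of probe sets of like signal had a lower SD. The ranges overlapped, although 4 KO arrays lay above and KO 3 below all wild type arrays.

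Cck, the precursor of cholecystokinin, read 22.2 to 51.4 in wild type (39.2 ± 10.8, SD, n = 5) and 28.6 to 90.3 in KO (52.5 ± 23.0, SD, n = 6), a log2 change of 0.27 ± 0.23 (SE). The highest array was KO 6. Gal, galanin, a peptide raised in many neurons after axon injury, read 23.7 to 59.8 and 25.6 to 53.8, with means of 41.2 ± 15.8 and 44.1 ± 11.1 and a log2 change of 0.093 ± 0.22. Sst, somatostatin, which restrains release of other hormones, lay below the minimum signal, at 3 to 40.6 in wild type and 4.7 to 30.6 in KO. For none of these did the groups separate, and none of the 3 was called.

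Receptors for the 10 peptides were taken as a list of 25 names, among which Ppyr1 is an older name of Npy4r. Of these 23 had a probe set, 14 were tested, 1 rose and none fell, which is 1 of 14 against 0.455% of all probe sets called. The median change of the 14 was 0.015, beside 0.047 over all probe sets. Cckbr, the cholecystokinin B receptor, was the one that rose, from 88.4 ± 16.8 (SD, n = 5) to 157 ± 18.0 (SD, n = 6). Wild type arrays read 82, 117, 79, 74.8 and 89.3 and KO arrays 179.3, 160.9, 128.1, 145.4, 158.7 and 168.9, so that the groups did not overlap. The rise on the log2 scale was 0.73 ± 0.16 (SE; adjusted p = 0.0417 in limma). The call ended when any 1 of wild type 1, 3, 4 or 5 or KO 1, 2, 4, 5 or 6 was left out (log2 changes of 0.69 to 0.75, adjusted p of 0.058 to 0.156), while the direction held in all alternatives.

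The other cholecystokinin receptor, Cckar, differed by -0.31 ± 0.18 on the log2 scale (SE; adjusted p = 0.845 in limma). After Cckbr the receptor gene of smallest p was Sctr. Npy1r, the Y1 receptor, had -0.044 ± 0.36, Adcyap1r1, the PACAP receptor, -0.16 ± 0.19, and Vipr1 and Vipr2 0.33 ± 0.36 and 0.28 ± 0.28, and none of them passed. Npy2r, Npy4r, Npy5r, Npy6r, Galr1, Tacr1, Sstr1, Sstr3 and Nmbr lay below the minimum signal.

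Genes that process peptide precursors or build granules did not pass. Of 21, 20 were tested, 12 had a positive and 8 a negative estimate, and the median change was 0.056. The summed signal was 19210 to 21387 in wild type and 18037 to 22183 in KO. Carboxypeptidase E (Cpe), which trims the basic ends of cut peptides, differed by -0.082 ± 0.067 (SE), and Pam, which amidates them, by -0.13 ± 0.28. The convertase Pcsk1 differed by 0.015 ± 0.19 and its inhibitor Pcsk1n by 0.49 ± 0.19 (adjusted p = 0.572 in limma). The smallest p was that of Chga, chromogranin A, at 1630 ± 194 (SD, n = 5) and 1150 ± 146 (SD, n = 6), which is -0.50 ± 0.12 on the log2 scale (SE; adjusted p = 0.0932 in limma). Of the KO arrays only KO 1 (1431.2) overlapped the wild type range, which began at 1426.4, and without KO 1 Chga was called. Chgb and Scg2, other granins, had -0.018 ± 0.16 and 0.33 ± 0.17 and did not pass.

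Precursors of other peptides were a list of 51, of which 41 had a probe set and 24 were tested. Of these 1 fell and none rose, beside 0.211% of all probe sets called lower, and the median change was -0.070. Cartpt, the precursor of the CART peptides, fell from 687 ± 111 (SD, n = 5) to 378 ± 69.1 (SD, n = 6). Wild type arrays read 635.9, 703.1, 869.9, 646.1 and 582 and KO arrays 312.4, 301.4, 380.8, 493.9, 393.9 and 384.5, with no overlap. This is a fall of 0.84 ± 0.15 on the log2 scale (SE; adjusted p = 0.0145 in limma). Without wild type 3 it was -0.76 and did not pass (limma, adjusted p = 0.0756), and without KO 5 and 6 it was -0.87 with an adjusted p of 0.056 (limma).

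Edn1, endothelin 1, a constrictor of vessels, was next by p, at 57.6 ± 10.8 (SD, n = 5) and 107 ± 16.0 (SD, n = 6), again with no overlap, and missed the threshold (0.75 ± 0.16 on the log2 scale, SE; adjusted p = 0.0528 in limma). Penk, proenkephalin and the brightest of the list, had -0.23 ± 0.14 (limma, adjusted p = 0.874). Edn2, endothelin 2, the next brightest, had -0.63 ± 0.34. Of the secretin family, Gcg, Gip and Ghrh lay below the minimum signal.

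**Figure D4:**
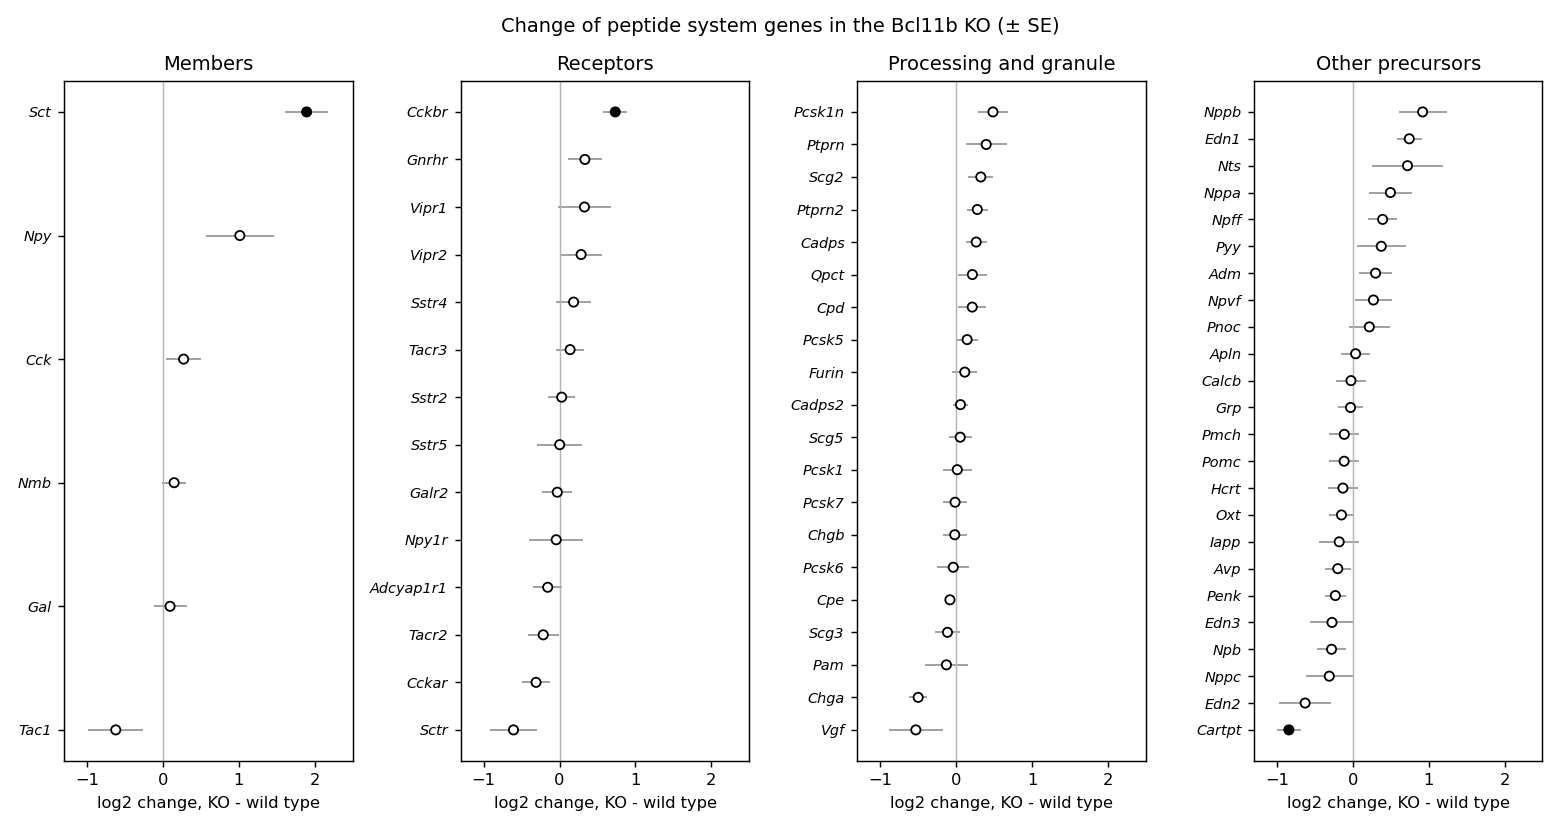
Log2 change (KO minus wild type, ± SE from limma) of the tested members, receptors, processing and granule genes and other peptide precursors, each gene by its brightest tested probe set; filled points were called over all probe sets. Sct (1.89), Cckbr (0.73) and Cartpt (-0.84) are filled, and the other points spread on both sides of 0.

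Other marker lists were read for cells that could carry these peptides. Among 7 tested microvillar markers, which include Coch and Ascl3, none was called, the median change was 0.015 and the sum was 4232 to 5147 in wild type and 4266 to 6146 in KO. None of 6 vomeronasal markers was called (median 0.11; sum 4419 to 6168 and 4826 to 7370; Gnai2 and Meis2 brightest), and none of 12 immature OSN markers (median 0.062; sum 30131 to 37020 and 28634 to 37966; Stmn1 and Dpysl3 brightest). Of 9 tested OSN precursor markers, led in signal by Sox11 and Insm1, 2 rose, beside 0.244% of all probe sets called higher, with a median of 0.27 and sums of 17907 to 26406 and 21845 to 28767. The 4 tested endocrine markers were Insm1, Chga, Ddc and Neurod1, a factor that OSN precursors share. Neurod1 alone was called (log2 change 0.66), beside 0.244% of all probe sets called higher. It is also 1 of the 2 OSN precursor markers that rose. Ddc had a larger estimate, 0.77 ± 0.23 (SE), and did not pass (limma, adjusted p = 0.263). The median of these endocrine markers was 0.32, and their sum was 7158 to 10940 and 7154 to 10336. Their part in the Sct values was not tested.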

How the data were processed

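Groups, replicate numbers and sex came from the sample labels. The deposited values are linear intensities, 1 per probe set and array, made by the authors on Affymetrix mouse genome arrays from cRNA amplified in 2 cycles and scaled linearly to a GAPDH probe set in the GeneChip operating software (GCOS); that probe set reads 10000 on each array. The table holds no detection calls. Genes were named from the platform annotation by probe sets with 1 symbol, and Entrez identifiers gave the same symbol in RefSeq for 11 of 11 member probe sets.

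Intensities were taken as log2(signal + 16). The 64 control probe sets and those with a mean signal under 20 were left out, and 33662 were fitted in limma 3.58.1 (R 4.3.3; lmFit, eBayes with trend, no covariate, Benjamini-Hochberg threshold 0.05). The fit was tested on simulated data. Where several tested probe sets named a gene, the brightest on average was used. For members below the minimum, the fit without a minimum gave the changes. Precision is limited by the number of arrays, and p-values measure only the spread between these separately prepared samples.

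Members, lists and tests were chosen with earlier results of these data known. The genes named were the 10 members and Bcl11b; those past the threshold and the 2 of smallest p in the lists of receptors, processing and granule genes and other precursors; the 5 closest to Sct; its 3 neighbours on each side; and the 2 brightest of each of 8 marker lists (mature OSN, immature OSN, OSN precursor, ensheathing glia, microvillar, bulb, vomeronasal, endocrine). Others named in the text were chosen after their values were seen.

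Alternatives were 3 other scalings, pseudocounts of 1 and 64, no minimum and a minimum of 100, no trend, array weights, males only, covariates for sex and for poly-A controls (split at the largest gap), the 2 sets of poly-A controls apart, the mean of a gene's probe sets, a block for replicate number, and leaving out each array. The alternative without KO 5 and KO 6 was added after seeing the data.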

Additional observations from a re-analysis of the deposited data

How the results depend on the processing

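The log2 change of Sct lay between 1.20 (pseudocount 64) and 2.40 (pseudocount 1) in all 28 alternatives. Sct kept its call in all but the arrays of higher poly-A controls alone (1.34, from 2 wild type and 3 KO arrays). Leaving out single arrays gave 1.75 to 2.17. Sct was chosen by this contrast on these same arrays, so its calls here describe the effect of the processing and support nothing. The number of members called was 1 in each of the other alternatives, Npy in place of Sct among the arrays of higher poly-A controls, and 1 to 2 when single arrays were left out (2 without KO 2, with Npy). Among receptors the count was 0 to 1 when single arrays were left out, and 0 in males only, with sex as a covariate, without a minimum signal, on spiked control scaling, within each set of poly-A controls, without KO 5 and 6 and with the replicate block; the adjusted p of Cckbr ranged from 0.0111 to 0.679 (limma). Among processing genes it was 0 to 1 when single arrays were left out and 1 (Chga) after quantile normalization and on spiked controls. Among other precursors it was 0 to 1 when single arrays were left out, 2 (Cartpt and Edn1) with array weights, no trend, the poly-A covariate, quantile normalization and the mean of probe sets, and 0 within each set of poly-A controls, without KO 5 and 6 and with the replicate block. Same-numbered wild type and KO arrays did not deviate together (correlations of -0.28 to 0.0085 across probe sets). That gave no sign that the numbers pair the samples, but with so few arrays it cannot exclude shared litters or processing. With the replicate block, in which KO 6 drops out of the contrast, Sct changed by 1.83 and stayed called. There 91 probe sets were called in place of 153. On the spiked hybridization controls the median of all changes was -0.12 in place of 0.047; there Sct changed by 1.76. Calls over all probe sets numbered 345 with array weights, 312 on spiked controls, 293 after quantile normalization, 95 without KO 5 and 6, 31 and 39 within the higher and lower poly-A sets, and 85 (without wild type 3) to 213 (without KO 2) when single arrays were left out. The dim probe sets of Vip, Adcyap1 and Sst had readings near 0, which limit what their changes can show.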

Other observations

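The 2 female KO samples, KO 3 and KO 6, did not read alike in the peptide genes. KO 3 had the lowest Tac1, Nmb and Vip of all 11 arrays (63.9, 137.6 and 2.3), and KO 6 read 226.6, 207.6 and 26.9 for the same genes. Females averaged 334 and males 209 for Npy, 193 and 152 for Sct and 71.3 and 43 for Cck among KO samples, with 2 and 4 arrays, so no test was made.

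In each group of 5 or 6 arrays, 12 in all over the 6 tested members, no single highest or lowest array stood apart from the others by Dixon's criterion.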
